A study of Mus musculus with 34 samples.

Results

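Medium spiny neurons are the GABAergic projection neurons that make up most of the striatum, and 9 genes that mark them were followed here through mouse cortex, hippocampus and thalamus. The genes were taken by symbol from the deposited expression table: the dopamine receptors Drd1 and Drd2, the adenosine receptor Adora2a, the peptide precursors Penk, Tac1 and Pdyn, and the signalling genes Ppp1r1b, Rgs9 and Pde10a. All 9 were present among the 16389 genes of the table, and all 9 were among the 14710 genes that reached the minimum level for testing. The study asked what lasting replacement of microglia by bone marrow-derived myeloid cells does to the brain. Male C57BL/6 mice formed 3 groups. WT CON mice were vehicle-treated wild-type controls, which received neither irradiation nor a transplant. GFP-BM CON mice received 1000 cGy of whole body irradiation and then bone marrow from CAG-EGFP donors, in which the ubiquitous CAG promoter drives green fluorescent protein. GFP-BM REPOP mice were irradiated and transplanted in the same way, were given chow with 600 ppm PLX3397, which blocks CSF1R and removes microglia, for 14 days starting 3.5 months after irradiation, and then recovered for 6 months. Tissue of the irradiated groups was taken about 10 months after irradiation. No sample analysed here had PLX3397 without irradiation, so effects of the drug and of its combination with irradiation and transplant cannot be told apart. Bulk RNA sequencing gave 34 libraries from 12 mice: 11 of cortex (3 WT CON, 4 GFP-BM CON, 4 GFP-BM REPOP), 12 of hippocampus (4 in each group) and 11 of thalamus (4, 3 and 4). The labels' extraction notes give this last sample as thalamus plus striatum, so medium spiny neurons belong to that sample by dissection, whereas the cortex and hippocampus samples should lack them.

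Medium spiny neurons fall into a pair of classes. Neurons of the direct pathway carry the D1 receptor (Drd1) and make substance P (Tac1) and dynorphin (Pdyn), and neurons of the indirect pathway carry the D2 receptor (Drd2) and an adenosine receptor (Adora2a) and make enkephalin (Penk). Both classes contain DARPP-32 (Ppp1r1b), the phosphatase inhibitor that integrates dopamine signals, the GTPase accelerator RGS9 and the cyclic nucleotide phosphodiesterase PDE10A. The members are not all confined to these neurons. Pdyn, for example, is also made by granule cells of the dentate gyrus, and Penk and Tac1 by subsets of cortical, hypothalamic and other neurons. The cells behind each member's level were not identified in these bulk samples.

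The proximal promoters of Drd1, Drd2, Tac1 and Pdyn are shown because the first pair are the defining receptors of the 2 pathways and the second pair are the members whose levels passed the test between regions. Each window holds 300 bases around a RefSeq transcription start on GRCm38.p6, written 5′ to 3′ in the direction of transcription. Windows were matched for 6 of the 9 genes: these and Rgs9 and Pde10a, with Penk, Adora2a and Ppp1r1b unmatched. Capitals mark a GC box (GGGCGG or, on the other strand, CCGCCC) or a half-site of the cAMP response element (TGACG or CGTCA). Drd1 (chr13:54055609-54055908, minus strand, 65.7% GC), Drd2 (chr9:49340153-49340452, plus strand, 70.3% GC), Tac1 (chr6:7554811-7555110, plus strand, 54.0% GC) and Pdyn (chr2:129699889-129700188, minus strand, 59.0% GC) read:
Drd1: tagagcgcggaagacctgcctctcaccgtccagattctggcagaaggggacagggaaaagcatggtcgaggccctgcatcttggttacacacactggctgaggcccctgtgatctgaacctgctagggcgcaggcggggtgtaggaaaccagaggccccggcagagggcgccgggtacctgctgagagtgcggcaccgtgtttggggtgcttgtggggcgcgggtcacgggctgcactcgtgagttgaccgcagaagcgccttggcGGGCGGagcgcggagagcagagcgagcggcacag
Drd2: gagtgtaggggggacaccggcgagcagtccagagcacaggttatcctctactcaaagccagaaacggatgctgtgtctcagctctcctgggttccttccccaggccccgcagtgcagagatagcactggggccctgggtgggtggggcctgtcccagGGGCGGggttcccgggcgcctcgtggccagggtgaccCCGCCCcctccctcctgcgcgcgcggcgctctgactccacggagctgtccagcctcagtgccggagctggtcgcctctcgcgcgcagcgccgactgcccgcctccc
Tac1: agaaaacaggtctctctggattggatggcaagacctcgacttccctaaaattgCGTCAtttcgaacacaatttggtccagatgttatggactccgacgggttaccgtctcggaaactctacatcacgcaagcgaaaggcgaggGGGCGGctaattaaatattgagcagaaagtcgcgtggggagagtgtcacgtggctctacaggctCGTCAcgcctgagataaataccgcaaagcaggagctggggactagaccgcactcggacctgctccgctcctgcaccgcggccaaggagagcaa
Pdyn: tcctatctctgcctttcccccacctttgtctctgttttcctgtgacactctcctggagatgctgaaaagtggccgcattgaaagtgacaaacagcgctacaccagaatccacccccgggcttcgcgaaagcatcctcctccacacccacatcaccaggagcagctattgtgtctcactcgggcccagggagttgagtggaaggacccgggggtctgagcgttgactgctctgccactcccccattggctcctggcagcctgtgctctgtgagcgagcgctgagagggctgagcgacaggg
The Drd1 window held 1 GC box, the Drd2 window 2 and the Tac1 window 1, beside 2 half-sites of the cAMP response element in Tac1; the Pdyn window held none of these letters. Of all 32851 promoter windows in the reference, 35.7% held a GC box and 20.8% a cAMP response element half-site. The full element TGACGTCA, present in 1.79% of all windows, and the TATA box letters TATAAA (or TTTATA), present in 13.6%, were in none of these 4. Drd1 and Pdyn each have a second annotated start, which is not shown. These matches describe the sequence only.

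The regional labels were checked against marker lists, with each list given as its mean log2(FPKM + 0.1) per library. Thalamus markers were at 3.32 to 4.51 in the thalamus libraries and at 1.19 to 2.91 elsewhere, and cortex markers were at 4.42 to 4.62 in cortex and at or below 4.17 elsewhere. Hippocampus markers were at 2.61 to 3.68 in 9 of the 12 hippocampus libraries. The other 3, WT CON replicate 2 (-0.11) and GFP-BM REPOP replicates 1 (0.18) and 4 (1.05), lay below the highest cortex library (1.80), so these libraries go against their label. The spread, the treatment tests, the regional counts and the tally by mouse are also given without these 3, a choice made after values were seen. Hippocampus markers did not fully separate hippocampus from thalamus, where they were at 0.36 to 2.70. GFP-BM REPOP thalamus replicate 4 (2.70) lay above WT CON hippocampus replicate 1 and GFP-BM REPOP hippocampus replicate 2, both at 2.61. The libraries held 17085018 to 26010509 reads, with a median of 21367227.

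Medium spiny neuron transcripts overlapped between cortex and thalamus in every gene, and were low in most hippocampus libraries but very high in a few. The mean log2(FPKM + 0.1) over the 9 genes ran from 4.20 to 5.53 in cortex, from 4.21 to 6.20 in thalamus and from 2.68 to 6.85 in hippocampus. The lowest library of all was WT CON hippocampus replicate 4 and the highest was GFP-BM REPOP hippocampus replicate 4, above every library of the region dissected with striatum. The next 2 highest hippocampus libraries were WT CON replicates 2 (5.58) and 3 (5.56). Without the 3 libraries low in hippocampus markers the mean ran from 2.68 to 5.56 in hippocampus.

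**Figure D1:**
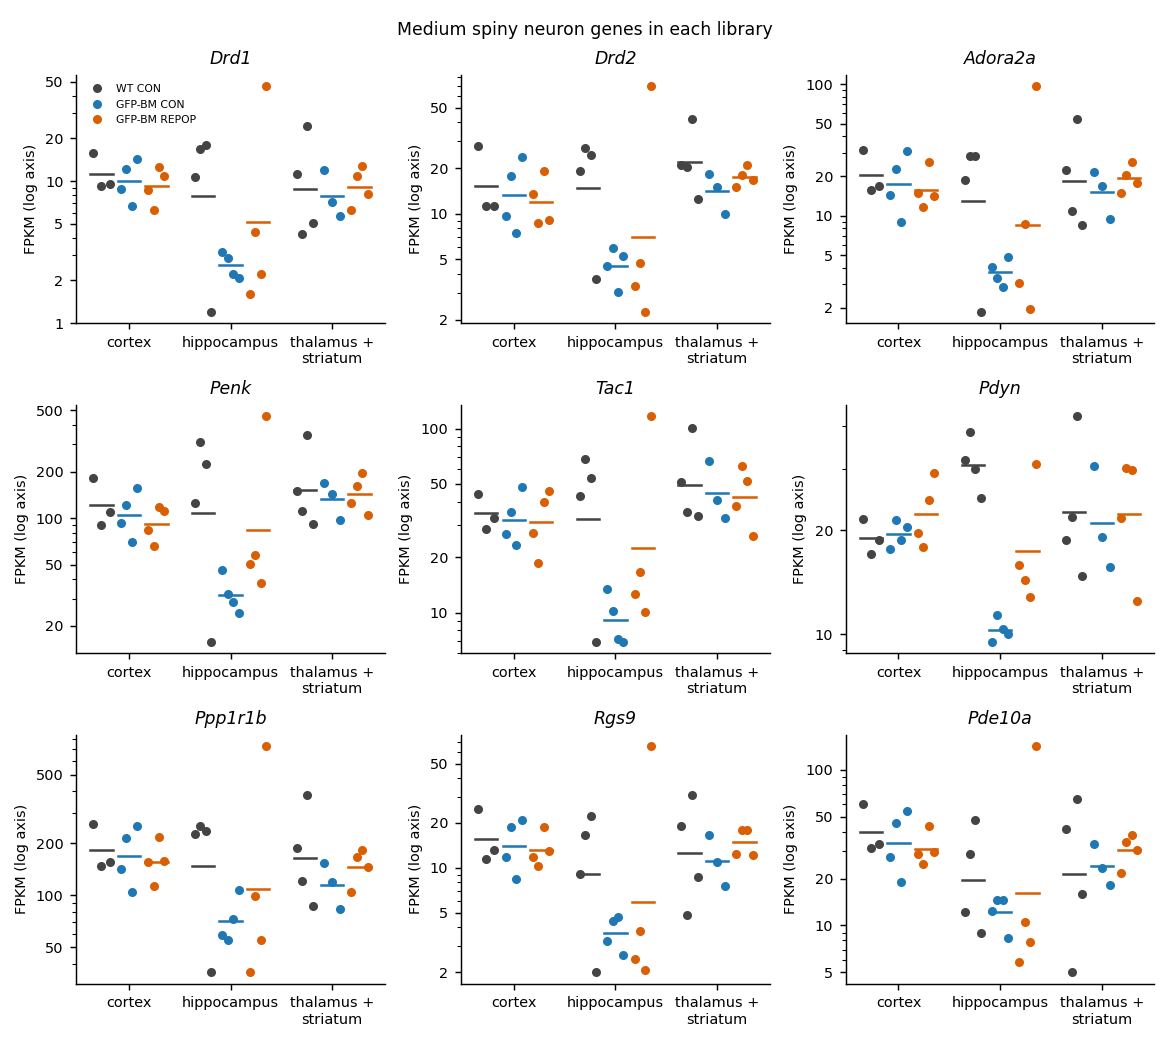
FPKM of the 9 genes on a log axis in each of 34 libraries, by region and group; points are libraries and bars are geometric means of the group. The highest point for 8 of the 9 genes is 1 GFP-BM REPOP hippocampus library, and cortex and thalamus overlap for every gene.

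The dopamine and adenosine receptors overlapped between the groups in cortex and in thalamus. Drd1, the stimulatory D1 receptor, in cortex was at 15.8, 9.27 and 9.54 FPKM in the 3 WT CON libraries, at 8.85, 12.1, 6.72 and 14.4 in GFP-BM CON, and at 8.62, 6.22, 12.5 and 10.9 in GFP-BM REPOP. Its thalamus values were 11.3, 4.26, 24.3 and 5.08 in WT CON, 12, 7.18 and 5.66 in GFP-BM CON, and 6.24, 10.8, 12.7 and 8.08 in GFP-BM REPOP. The lowest and highest thalamus libraries, 5.70-fold apart, were both WT CON. Hippocampal Drd1 was at 10.7, 16.9, 17.9 and 1.20 FPKM in WT CON, at 3.15, 2.88, 2.23 and 2.09 in GFP-BM CON, and at 1.60, 4.37, 2.23 and 46.9 in GFP-BM REPOP. Thus 3 WT CON libraries and 1 GFP-BM REPOP library carried cortex-like or higher Drd1, and the other 8 were at 4.37 or below. The level behind the lowest of these values was 86 reads and behind the highest 3503, so counting error is small beside the 39.0-fold range. Without the 3 libraries low in hippocampus markers the range was 14.9-fold.

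Drd2, the inhibitory D2 receptor, was high in the same 4 hippocampus libraries. In hippocampus it was at 19.2, 27.3, 24.3 and 3.69 FPKM in WT CON, at 4.53, 5.96, 3.03 and 5.24 in GFP-BM CON, and at 3.32, 4.75, 2.25 and 69.8 in GFP-BM REPOP. It spanned 7.51 to 28.1 in cortex and 10 to 41.9 in thalamus. Adora2a, the Gs-coupled receptor that opposes D2 signalling, spanned 9.01 to 31.7 FPKM in cortex and 8.54 to 54.3 in thalamus. Its hippocampal range was the widest of the 9, 52.5-fold, from 1.85 in WT CON replicate 4 to 97.0 in GFP-BM REPOP replicate 4, and it was 15.2-fold without the 3 libraries low in hippocampus markers. Drd2 lay above Drd1 on the log2(FPKM + 0.1) scale in 33 of 34 libraries, the exception being a GFP-BM REPOP cortex library (Drd1 minus Drd2, 0.25). That difference reached -2.24 in 1 WT CON thalamus library, replicate 2, which is described further below.

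The enkephalin precursor Penk was among the most abundant members per length. Its hippocampal values were 126, 311, 225 and 15.7 FPKM in WT CON, 46.2, 32.2, 28.5 and 24.2 in GFP-BM CON, and 50.1, 57.4, 37.8 and 458 in GFP-BM REPOP. The WT CON libraries thus enclosed all 4 GFP-BM CON libraries. Thalamic Penk was at 91.7 to 346 FPKM and cortical Penk at 65.9 to 181. Tac1, which encodes the tachykinin substance P, was at 18.7 to 48.0 FPKM in cortex and 26.0 to 101 in thalamus. Its hippocampal values were 42.8, 68.7, 53.8 and 6.92 in WT CON, 13.5, 10.2, 7.19 and 6.91 in GFP-BM CON, and 12.6, 16.7, 10.1 and 117 in GFP-BM REPOP. The overlap of WT CON and GFP-BM CON rested on WT CON replicate 4 alone. Penk exceeded Tac1 in all 34 libraries, and the group means of Tac1 minus Penk kept to -1.90 to -1.57 on the log2 scale.

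Pdyn, the dynorphin precursor, had a pattern of its own in the hippocampus. It was at 32.0, 38.5, 30.1 and 24.8 FPKM in WT CON, at 9.50, 11.4, 10.4 and 10 in GFP-BM CON, and at 15.9, 14.4, 12.8 and 31.2 in GFP-BM REPOP. All 4 WT CON libraries lay above all 4 GFP-BM CON libraries, and so did all 4 GFP-BM REPOP libraries. WT CON replicate 4, which held the fewest Drd1, Adora2a, Penk and Rgs9 reads per length, therefore still had over 2 times the Pdyn of any GFP-BM CON library. Outside the hippocampus Pdyn was the steadiest member in cortex (17.1 to 29.2 FPKM) and spanned 12.5 to 42.8 in thalamus.

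The signalling genes ranged widely as well. Ppp1r1b was at 226, 253, 237 and 35.8 FPKM in WT CON hippocampus, at 59.3, 55.3, 73.4 and 108 in GFP-BM CON, and at 35.8, 99.4, 55.0 and 730 in GFP-BM REPOP. It was also the member with the highest mean level in cortex (175 ± 53.1 FPKM, SD, n = 11) and in thalamus (158 ± 82.7, n = 11). Rgs9, whose product shortens G protein signalling at dopamine receptors, was at 8.42 to 24.7 FPKM in cortex, 4.81 to 30.7 in thalamus and 1.99 to 65.3 in hippocampus. Pde10a, the phosphodiesterase that lowers cAMP and cGMP in these neurons, was at 19.0 to 60.6 FPKM in cortex, 4.99 to 65.1 in thalamus and 5.84 to 142 in hippocampus. For both genes GFP-BM REPOP hippocampus replicate 4 was the highest library and a WT CON thalamus library the next highest.

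In thalamus the library with the least Rgs9 and Pde10a, WT CON replicate 2, was not low in all members. Its Drd2 (20.5 FPKM) was near the group median of 20.7, its Drd1 (4.26) was the lowest of the region, and its Slc17a6, the vesicular glutamate transporter of thalamic neurons, was at 4.72 FPKM beside a region median of 35.6. The same library had the largest excess of high-GC over low-GC genes of all 34, a median log2 difference of 3.65 between the 1388 genes at each end of GC content, beside 0.45 to 2.16 in the other thalamus libraries. The part of base composition in these values was not tested.

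Libraries of the same group were spread more widely for most of these genes than for most other genes. The median SD within groups, on the log2 scale, was 0.482 for the 9 genes in cortex beside 0.118 for all 14710 genes tested, 1.48 beside 0.292 in hippocampus and 0.646 beside 0.225 in thalamus. In cortex and in hippocampus 8 of the 9 members lay above the 90th percentile of all genes, and Pdyn did not. In thalamus 4 of 9 did. Without the 3 hippocampus libraries low in hippocampus markers the median SD there was 1.01 for the members beside 0.273 for all genes, and 8 of 9 again lay above the 90th percentile. Adora2a had the largest SD over all hippocampus libraries (1.80), Drd2 in cortex (0.681) and Pde10a in thalamus (1.04).

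Treatment differences were then tested within each region with limma on log2(FPKM + 0.1), with Benjamini-Hochberg adjustment over all 14710 genes and an adjusted p under 0.05 as the threshold. These are bulk samples, so fewer neurons of a type and less RNA per neuron cannot be told apart. In cortex 0 of 9 members were called in GFP-BM CON against WT CON, where 0.32% of all genes were, and 0 had an unadjusted p under 0.05 beside 16% of all genes. Counts were also 0 of 9 in GFP-BM REPOP against WT CON (0.734% of all genes called) and against GFP-BM CON (0.0476%), again with 0 at an unadjusted p under 0.05 beside 14.3% and 4.27% of all genes. Drd1 differed by -0.15 (95% interval -0.78 to 0.49) between GFP-BM CON and WT CON and by -0.27 (-0.90 to 0.36) between GFP-BM REPOP and WT CON. The median over the 9 members was -0.15 and -0.27 in these comparisons, beside 0.02 over all genes in each. Voom on the recovered reads and the other alternatives also called 0 members in cortex.

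Thalamic members were called in no treatment comparison either. The count was 0 of 9 in GFP-BM CON against WT CON (0% of all genes), in GFP-BM REPOP against WT CON (0.836%) and in GFP-BM REPOP against GFP-BM CON (0%), with 0 at an unadjusted p under 0.05 in each, beside 20.7%, 25% and 0.945% of all genes. The intervals were wide: Drd2, at the lower end of the members, differed by -0.63 (-1.38 to 0.12) between GFP-BM CON and WT CON, and Pde10a, at the upper end, by 0.50 (-0.92 to 1.92) between GFP-BM REPOP and WT CON. Median differences over the 9 were -0.17, -0.02 and 0.32 in the order above, beside -0.06, -0.05 and -0.01 over all genes. Limma's 3 tests of whether a treatment difference in thalamus differed from that in cortex called 0 members and 0% of all genes. In them 0 members had an unadjusted p under 0.05, beside 3.45% of all genes for GFP-BM CON against WT CON, 5.25% for GFP-BM REPOP against WT CON and 0.204% for GFP-BM REPOP against GFP-BM CON. By voom on recovered reads, 0 members were called in these comparisons too.

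Hippocampal members were lower in GFP-BM CON than in WT CON in the fitted means of all 9, but none passed the test. GFP-BM CON against WT CON called 0% of all genes, and 2 of 9 members had an unadjusted p under 0.05 where 23.9% of all genes did. Pdyn came nearest the threshold, with a log2 difference of -1.58 ± 0.24 (SE; 95% interval -2.09 to -1.06), or 0.335-fold, and an adjusted p of 0.071 by limma. Tac1 differed by -1.82 ± 0.79 (adjusted p = 0.19 by limma) and Drd1 by -1.61 ± 1.0 (adjusted p = 0.34). Pdyn alone among the members did not overlap between these groups; 8.32% of all genes were lower in GFP-BM CON without overlap. By voom on recovered reads 0 members were called in the 3 hippocampal treatment comparisons. In the 4 WT CON libraries the excess of high-GC over low-GC genes was 1.75 to 3.39, and in the 4 GFP-BM CON libraries 0.71 to 2.08. With the 3 libraries low in hippocampus markers left out, Pdyn differed by -1.47 ± 0.13 and passed the test (adjusted p = 0.013 by limma), as the 1 gene called of all (0.0068%). Tac1 was then at -1.46 ± 0.63 (adjusted p = 0.27) and Drd1 at -1.26 ± 0.76 (adjusted p = 0.39). With a correction for GC content and length Pdyn differed by -1.40 (adjusted p = 0.047 by limma, where 1.28% of all genes were called). Its adjusted p was 0.0022 to 0.19 over all 24 alternatives, 7 of them under 0.05, and the direction was the same in each.

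GFP-BM REPOP against WT CON in hippocampus called 0 of 9 members (0.0136% of all genes), with 1, Pdyn, at an unadjusted p under 0.05, where 9.67% of all genes were (log2 difference -0.83 ± 0.24, adjusted p = 0.36 by limma). Against GFP-BM CON, GFP-BM REPOP also had 0 of 9 called (0.0272%), and Pdyn was again the 1 member with an unadjusted p under 0.05, beside 11.7% of all genes (0.75 ± 0.24, adjusted p = 0.28 by limma). Pdyn did not overlap between these last groups, where 4.12% of all genes were higher in GFP-BM REPOP without overlap. Both comparisons share the GFP-BM REPOP libraries, of which replicate 4 was the highest for every member. Drd1 in GFP-BM REPOP was 1.02 ± 1.0 above GFP-BM CON on the log2 scale with that library and 0.03 below without it. Without it Pdyn was 1.11 below WT CON (adjusted p = 0.05 by limma, just under the threshold), the 1 member called beside 0.034% of all genes. Pdyn was then 0.47 ± 0.15 above GFP-BM CON (adjusted p = 0.3 by limma), with 0 of 9 members called in that comparison beside 0.0068% of all genes. Without all 3 libraries low in hippocampus markers Pdyn was -1.08 ± 0.15 from WT CON (adjusted p = 0.3 by limma) and 0.39 ± 0.15 from GFP-BM CON (adjusted p = 0.49). In both comparisons 0 of 9 members were called, beside 0% of all genes.

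**Figure D2:**
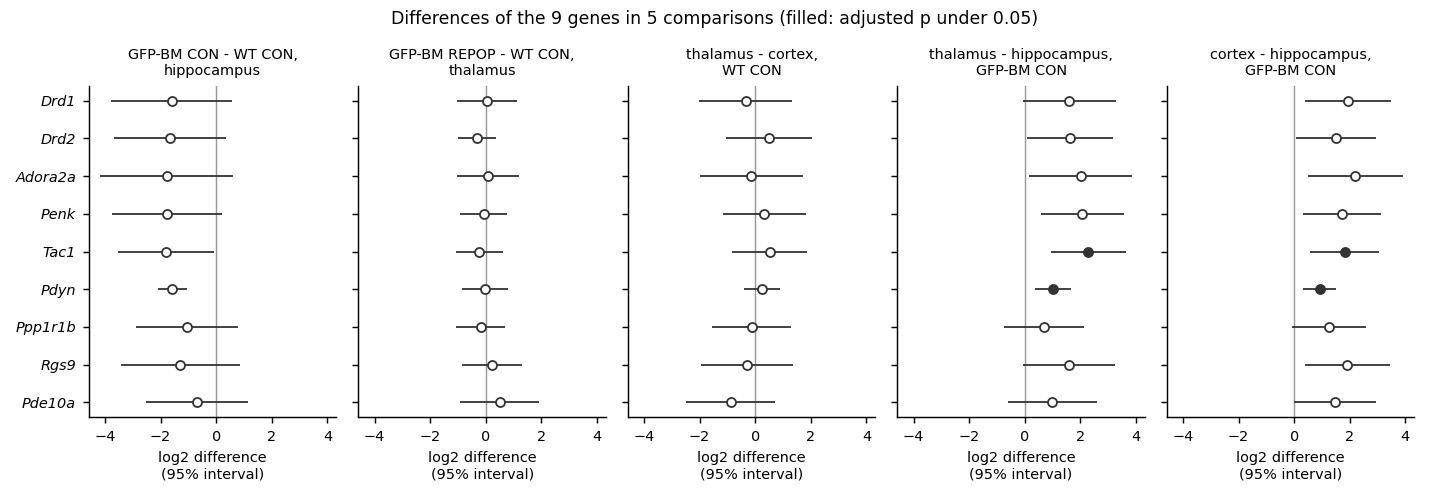
Log2 differences of the 9 genes with 95% intervals in 5 comparisons; filled points passed an adjusted p under 0.05. All points are below 0 for GFP-BM CON against WT CON in hippocampus with intervals that mostly cross it, and Tac1 and Pdyn are filled in the comparisons of thalamus and cortex with hippocampus in GFP-BM CON.

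The regions were compared within each group, with the mouse as a random block because regions of the same mouse, by the sample labels, need not be independent. The estimated correlation between regions of a mouse was -0.038, so this block changes the tests little. Counts with the mouse as a fixed block are given where they differ. That fit held only the libraries of the groups compared and took its spread from them, so block and spread changed together. No member was called between cortex and the thalamus dissected with striatum: the count was 0 of 9 in WT CON, where 30% of all genes were called, and 0 had an unadjusted p under 0.05 beside 44.1% of all genes. In GFP-BM CON (12.9%) and GFP-BM REPOP (14.8%) 0 of 9 were called as well, with 0 at an unadjusted p under 0.05 beside 25.2% and 27.1%, and voom on the recovered reads called 0 in each group. With the mouse as a fixed block 1 member was called in GFP-BM REPOP (36.1% of all genes). In WT CON the members lay between -0.89 (Pde10a, 95% interval -2.49 to 0.72) and 0.53 (Tac1, -0.82 to 1.88), with a median of -0.13 beside -0.01 over all genes. The interval for Drd1 (-0.33, -2.01 to 1.34) includes a 2-fold difference in either direction, and the narrowest was that of Pdyn (0.24, -0.39 to 0.88).

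The same comparison separated other genes of these regions, and each count below stands beside the 30% of all genes called in WT CON. In WT CON, thalamus against cortex, 10 of 13 thalamus markers were higher and 0 lower, led by Gbx2 (log2 difference 4.61 ± 0.52, adjusted p = 6.1e-07 by limma), Shox2 (4.27 ± 1.09) and the transcription factor Tcf7l2 (3.84 ± 0.57), with Rora at -1.22 ± 0.51 (adjusted p = 0.065). Of 10 cortex markers 9 were lower and 0 higher, among them Cux2 (-0.85 ± 0.24) and Rspo1 (-1.26 ± 0.36), and Scnn1a was at -0.68 ± 0.38 and not called. Among 6 genes of cholinergic interneurons and dopamine axons 4 were higher and 0 lower, led by the dopamine transporter Slc6a3 (5.85 ± 0.81), the catecholamine enzyme Th (3.42 ± 1.19) and the vesicular monoamine transporter Slc18a2 (2.51 ± 0.40), and the choline transporter Slc5a7 was at 0.19 ± 0.64. Slc6a3 and Th also mark the cell bodies of midbrain and hypothalamic dopamine neurons. Of 10 habenula and hypothalamus genes 6 were higher, led by the hypothalamic peptides Pmch (6.42 ± 0.92), Hcrt (5.84 ± 0.91) and Avp (4.37 ± 1.23), with Agrp at -0.27 ± 0.47. Glial lists moved too: 4 of 7 oligodendrocyte markers were higher (among them Mag 1.06, Mbp 1.01 and Cnp 0.93), and 4 of 7 astrocyte markers (Gfap 1.14, S100b 0.80 and Aldoc 0.62, with Slc1a3 at -0.25 and not called). Of 7 microglia markers 1 was higher and 1 lower (the latter P2ry12, -1.35), of 12 hippocampus markers 1 was lower (Neurod6 -2.51), and 0 of 8 choroid plexus and 0 of 5 engrafted myeloid markers were called by limma. The counts of these last lists are not read as results about them.

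Of 30 genes tested from a wider list of striatal projection neurons, 6 were called in that comparison, a share below the 30% of all genes. Of these, 2 were higher in thalamus, Gpr149 (1.71 ± 0.53) and the substance P receptor Tacr1 (1.44 ± 0.54), and 4 were lower, with the diacylglycerol kinase Dgkb at -2.04 ± 0.60; the D3 receptor Drd3 was at 1.31 ± 0.73 (adjusted p = 0.16 by limma). Their median was -0.15 beside -0.01 for all genes. Of 13 transcription factors of the lineage 1 was higher, Zfp503 (1.06 ± 0.26), and 1 lower, Foxp1 (-1.69 ± 0.50); Six3 was at 1.56 ± 0.68 and Isl1 at 0.99 ± 0.61, neither of them called. Among 12 dopamine signalling partners 1 was higher, the protein kinase A subunit Prkaca (0.43 ± 0.11, followed by Cdk5 at 0.05 and Ppp1ca at -0.03, not called), and 6 were lower, with the calcineurin subunit Ppp3ca at -2.34 ± 0.57. Among 9 genes that process neuropeptides 3 were higher, Scg2 (0.82 ± 0.22), Chga (0.65 ± 0.13) and Pcsk1n (0.44 ± 0.14), and 3 lower, with the prohormone convertase Pcsk1 at -0.93 ± 0.28. In the treatment comparisons 0 genes of the wider list or of the transcription factors were called by limma, where 0% to 0.836% of all genes were. Among the signalling partners 1 was, Rgs7bp, a membrane anchor of RGS complexes: thalamic GFP-BM REPOP libraries exceeded WT CON by 2.39 ± 0.46 (adjusted p = 0.048 by limma, just under the threshold). In that comparison 0.836% of all genes were called. The excess of high-GC over low-GC genes was 1.09 to 3.65 in those WT CON libraries and 0.51 to 0.94 in GFP-BM REPOP, and its part in that call was not tested.

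Thalamus exceeded hippocampus for 2 members in GFP-BM CON. In GFP-BM CON Tac1 was 4.90-fold higher in thalamus (log2 difference 2.29 ± 0.66, adjusted p = 0.019 by limma) and Pdyn 2.02-fold higher (1.02 ± 0.31, adjusted p = 0.027), so 2 of 9 members were called beside 14.3% of all genes (6.74% higher in thalamus), and 5 had an unadjusted p under 0.05 beside 28.8%. Penk, at 2.07 ± 0.73, missed the threshold (adjusted p = 0.056). Thalamus lay above hippocampus without overlap for 8 of 9 members, all but Ppp1r1b, where 15.6% of all genes did so. Voom on recovered reads also called 2 members. Its share of all genes is not given here, so that count is not read as a result about the members. These calls rested on single thalamus libraries. Without replicate 1 of GFP-BM CON thalamus Tac1 was at 2.0 (adjusted p = 0.092 by limma) and Pdyn at 0.75 (adjusted p = 0.17), and without replicate 2 Tac1 was at 2.36 (adjusted p = 0.055) and Pdyn at 1.08 (adjusted p = 0.062). In both cases 0 of 9 members were called, beside 9.71% and 7.36% of all genes. With the mouse as a fixed block 8 of 9 were called (23.6% of all genes). Cortex against hippocampus in GFP-BM CON gave calls for the same 2 genes beside 19.8% of all genes (12.1% higher in cortex), Tac1 at 1.81 ± 0.61 (adjusted p = 0.037 by limma) and Pdyn at 0.91 ± 0.29 (adjusted p = 0.026), and Adora2a at 2.2 ± 0.84 was not called (adjusted p = 0.062). There 7 members had an unadjusted p under 0.05 beside 34.5% of all genes, 8 members, again all but Ppp1r1b, did not overlap beside 21.3% higher without overlap, and voom on recovered reads called 0 members (20.4% of all genes). Without GFP-BM CON cortex replicate 2 (12.6%) or 4 (14.9%) or GFP-BM CON hippocampus replicate 4 (10.6%) 0 of 9 were called, and with the mouse as a fixed block 9 of 9 (21.9%). These 2 comparisons share the GFP-BM CON hippocampus libraries, and no GFP-BM CON hippocampus library was among the 3 low in hippocampus markers. Both also take their spread from all groups. Without GFP-BM REPOP hippocampus replicate 4 the counts were 4 of 9 (14.9% of all genes) and 7 of 9 (20.5%).

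Regional calls in the other groups depended on the libraries and the fit used as well. In WT CON 0 of 9 members were called in thalamus against hippocampus (17.7% of all genes) and in cortex against hippocampus (36.9%), with 0 and 1 at an unadjusted p under 0.05 beside 31.5% and 47.5%. The 1 was Pdyn, which ran the other way, lower in cortex by 0.70 ± 0.31 on the log2 scale (adjusted p = 0.077 by limma), without overlap, where 19.4% of all genes were lower without overlap. With the mouse as a fixed block Pdyn passed the test there (-0.68, adjusted p = 0.046 by limma, 8.85% of all genes called). In GFP-BM REPOP 0 of 9 were called in thalamus against hippocampus (34.3%) and 0 of 9 in cortex against hippocampus (17.5%), with 0 at an unadjusted p under 0.05 beside 44.8% and 33.7%. Without GFP-BM REPOP hippocampus replicate 4 these became 8 of 9 (beside 37.6% of all genes) and 6 of 9 (beside 26.1%), all higher than in hippocampus. Drd2 then stood 2.37 ± 0.53 above hippocampus in thalamus and 1.82 ± 0.53 in cortex (adjusted p = 0.0016 and 0.014 by limma), and Rgs9 2.43 ± 0.58 and 2.25 ± 0.58. Without all 3 libraries low in hippocampus markers the counts in GFP-BM REPOP were 5 of 9 against thalamus (36.3% of all genes) and 2 of 9 against cortex (29.6%). In GFP-BM CON, whose own libraries were all kept, they were 5 of 9 (16.9%) and 7 of 9 (22.7%), and in WT CON 0 of 9 in both (19.8% and 35.6%).

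Seen mouse by mouse, the hippocampus was the lowest of the 3 regions for the members in 7 of 10 mice with all regions, and the highest in 2. Both of the latter were mice of a library low in hippocampus markers, WT CON replicate 2 and GFP-BM REPOP replicate 4. In the 7 mice without such a library the hippocampus was lowest in 6 and highest in 0. The range between regions of 1 mouse was 1.37 to 2.47 on the log2 scale. Cortex was highest in 4 mice and thalamus in 4. GFP-BM REPOP mouse 1 had the same rounded mean in both, 4.66, and was counted under cortex. In the mouse of GFP-BM REPOP hippocampus replicate 4 the mean was 6.85 in hippocampus, 4.84 in cortex and 4.67 in thalamus, so its other regions were within the range of the remaining mice.

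**Figure D3:**
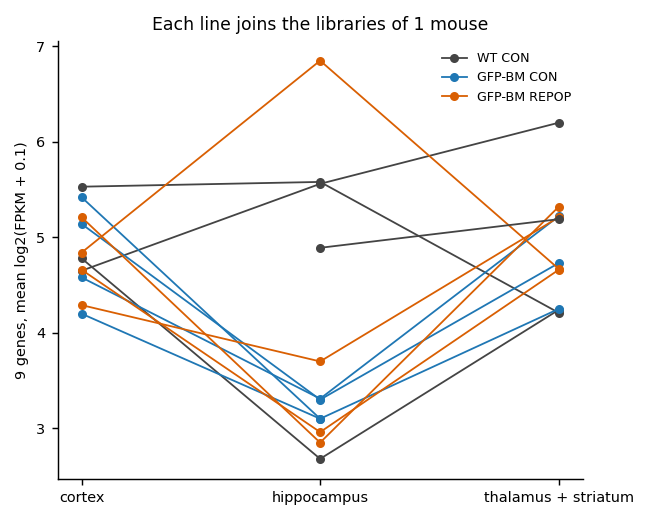
Mean log2(FPKM + 0.1) of the 9 genes in each region, with a line for each mouse and colours for the groups. Hippocampus is the low point of most lines, and the line of 1 GFP-BM REPOP mouse rises there to 6.85.

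High members and low hippocampus markers coincided in some hippocampus libraries only. GFP-BM REPOP replicate 4 had members at 6.85 and hippocampus markers at 1.05, and WT CON replicate 2 had 5.58 and -0.11. WT CON replicate 3, however, had members at 5.56 with hippocampus markers at 2.91, within the range of the other hippocampus libraries, and GFP-BM REPOP replicate 1 had members at 2.96 with hippocampus markers at 0.18. The wider striatal list moved with the members, at 4.96 in GFP-BM REPOP replicate 4 and 2.10 in WT CON replicate 4, the highest and lowest of all hippocampus libraries, and the lineage transcription factors were at 3.08 in the former. Thalamus markers in GFP-BM REPOP replicate 4 were the lowest of the 34 libraries (1.19). Its Slc17a6, at 1.61 FPKM, was not the lowest, with hippocampus libraries at 1.20 to 10.2. Its cortex markers were at 3.81, within the hippocampus range of 2.92 to 4.17, and its oligodendrocyte markers at 7.12, within 5.44 to 8.02. The part of dissection in these levels was not tested.

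Choroid plexus markers also varied among the hippocampus libraries, from 0.08 to 5.77, and were high in libraries with high and with low members. They were at 5.77 in WT CON replicate 1, whose members were at 4.89, and at 5.71 in GFP-BM CON replicate 4, whose members were at 3.10. In GFP-BM REPOP replicate 4 they were at 1.54.

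**Figure D4:**
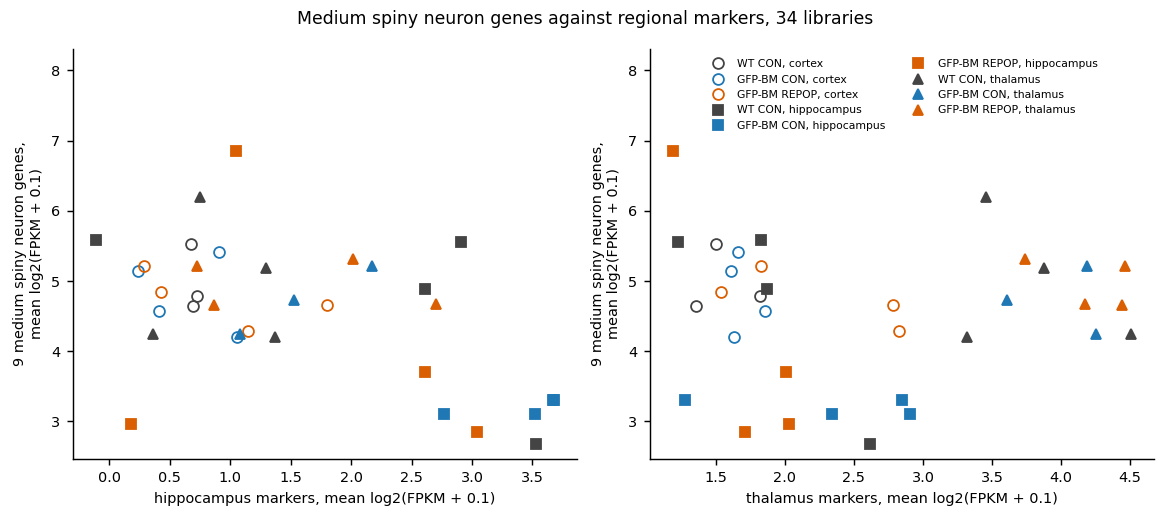
Mean log2(FPKM + 0.1) of the 9 genes against that of hippocampus markers (left) and thalamus markers (right) in 34 libraries; circles are cortex, squares hippocampus and triangles thalamus. Of the squares, 3 lie below the highest circle (1.80) on the left axis, and the triangles at high thalamus markers span the same heights as the circles.

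Within the thalamus samples the members varied together from mouse to mouse. Over the 11 libraries Pearson's correlation of each with Drd1 on the log2(FPKM + 0.1) scale passed a permutation test after adjustment over 9 relations. It was closest for Adora2a (Pearson r = 0.96, permutation p = 1e-05, the smallest that 100000 resamples give, adjusted p = 9e-05; Spearman rho = 0.96, permutation p = 3e-05, adjusted p = 0.00018) and Rgs9 (r = 0.95, permutation p = 3e-05, adjusted p = 0.00013; rho = 0.89, permutation p = 0.00062, adjusted p = 0.0014). Penk and Ppp1r1b both had r = 0.92 (permutation p = 0.0002 and 0.00013, adjusted p = 0.00045 and 0.00039), with rho = 0.89 and 0.85 (permutation p = 0.00063 and 0.0015, adjusted p = 0.0014 and 0.0027). For Pde10a r was 0.89 (permutation p = 0.00044, adjusted p = 0.00079) and rho 0.95 (permutation p = 4e-05, adjusted p = 0.00018). Tac1 had r = 0.86 (permutation p = 0.00087, adjusted p = 0.0013) and rho = 0.78 (permutation p = 0.0067, adjusted p = 0.01), and Drd2 r = 0.78 (permutation p = 0.0062, adjusted p = 0.0079) and rho = 0.72 (permutation p = 0.016, adjusted p = 0.021). Pdyn followed Drd1 least, with r = 0.73 (permutation p = 0.01, adjusted p = 0.012) and rho = 0.59 (permutation p = 0.06, adjusted p = 0.067), and its rank correlation did not pass.

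Thalamic Tcf7l2 did not pass the same test with Drd1. Its correlation over the same 11 libraries was r = -0.26 (permutation p = 0.44, adjusted p = 0.44) and rho = -0.28 (permutation p = 0.4, adjusted p = 0.4), over a range of 14.5 to 38.8 FPKM. Leaving out the 2 libraries farthest from the median of Drd1, WT CON replicates 2 and 3, gave r of 0.70 (Pdyn) to 0.96 (Ppp1r1b and Pde10a) for the members and -0.39 for Tcf7l2 over 9 libraries. With each group centred on its own mean r was 0.73 to 0.96 for the members, all still passing the permutation test, and -0.30 for Tcf7l2. Genes of 1 library share its depth and base composition, so these relations are not 8 independent ones.

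**Figure D5:**
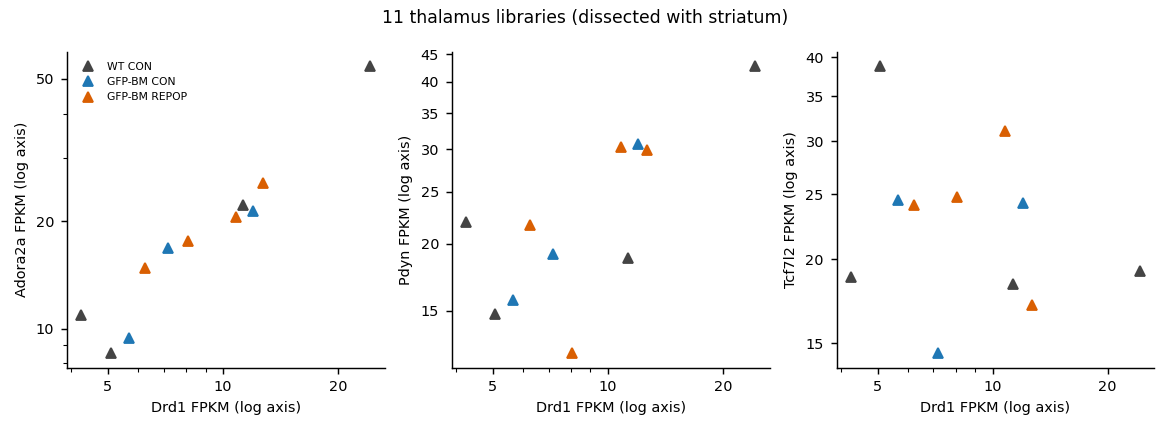
Adora2a, Pdyn and Tcf7l2 against Drd1 in the 11 thalamus libraries, FPKM on log axes, coloured by group. Adora2a rises with Drd1 (r = 0.96), Pdyn does so with more scatter (r = 0.73) and Tcf7l2 shows no such line (r = -0.26).

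Among the genes most like the members over all 34 libraries, by Pearson's r with the members' mean on the log2 scale, were Gpr6 (0.971), Serpina9 (0.969), Gpr52 (0.966), Rxrg (0.958), Rarb (0.957), Sh3rf2 (0.954), Cd4 (0.952), Adcy5 (0.939) and Tbc1d8 (0.937). Gpr6 is an orphan receptor of striatal neurons, Adcy5 is the adenylyl cyclase that serves D1 and adenosine receptors, and Rarb and Rxrg are retinoid receptors. Over the 11 thalamus libraries alone the most alike included Sh3rf2 (0.976), Slc35d3 (0.966), Gpr6 (0.962) and Rarb (0.961), and also Gpr83 (0.953), Ctdspl (0.951), Serpina9 (0.944), Gpr52 (0.943) and Rbm24 (0.941). The most opposed there were Nid1 (-0.869), Krt8 (-0.860), Rdh12 (-0.844), Tnfrsf12a (-0.839) and Tmem52 (-0.838). These coefficients rank genes and carry no test.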

How the data were processed

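RNA was extracted from dissected regions (RNeasy) and sequenced as paired 150-base reads. The methods name STAR for alignment, Rsubread (featureCounts) for counting and limma among the packages for RPKM, and the submitters' processing notes give mm10. The authors deposited 1 table of FPKM values, scaled by their normalized library sizes (0.929 to 1.10 of the reads). Whole reads were recovered from the steps of these FPKM values: 100.0% of values were whole within 0.01, with 17085018 to 26010509 reads per library. The values tested were log2(FPKM + 0.1), so a fold change of a low gene is understated. Genes needed an FPKM of 1 in 3 libraries, and 343 that were neither protein-coding nor long non-coding were left out (14710 tested).

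Groups and mice came from the sample labels. Treatment comparisons were fitted per region with limma 3.58.1 (R 4.3.3), 3 groups sharing 1 estimate of spread. Regional comparisons used all 9 groups with the mouse as a random block (estimated correlation -0.038), since the labels give regions of the same mice. Correlations of deviations between regions of a mouse were -0.58 to 0.44, so the pairing rests on the labels. In simulated data for GFP-BM REPOP against WT CON in thalamus over 14710 genes, all changes of 2 and 98% of changes of 1 on the log2 scale were found, with 18 false calls. The simulation gave all genes the same read dispersion and no differences between dissections. It therefore does not show how often a change of the members would be found. Their median within-group SD in thalamus was 0.646, beside 0.225 for all genes. Voom on the recovered reads was the count-based alternative; others changed the pseudocount, filter, scaling, GC correction, groups fitted or libraries. Correlations used permutation tests (100000 resamples, two-sided). Promoters came from RefSeq (GRCm38.p6).

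The members, the gene lists and the tests were chosen with earlier results of these data known. Named genes were all members, Tcf7l2, the 3 highest and 1 lowest of each other list between thalamus and cortex in WT CON, genes of the striatal lists called between treatments, and the genes most and least like the members; Rgs7bp, Slc17a6 and the choice to leave out 3 hippocampus libraries were added after values were seen. Some genes that this rule names are not reported here. Age is not given here because the sources state it in 2 ways. Library batches are not given in the sources used here, and the mice of a group are its replicates. The p-values by limma set a difference against the spread between libraries within groups, pooled over all groups of the fit.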

Additional observations from a re-analysis of the deposited data

Results flagged for a closer look

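A single sample stood apart from the other 3 of its group, by Dixon's test at the 95% level on FPKM, in 10 of the 63 pairs of member and group with 4 samples that were examined; chance alone marks about 1 in 20 groups, and the 9 genes are not independent. GFP-BM REPOP hippocampus replicate 4 accounts for 9 of the 10, high for every member: Drd1 46.9 (next highest 4.37), Drd2 69.8 (4.75), Adora2a 97.0 (8.68), Ppp1r1b 730 (99.4), Penk 458 (57.4), Tac1 117 (16.7), Pdyn 31.2 (15.9), Rgs9 65.3 (3.79) and Pde10a 142 (10.5). The gap was smallest relative to the range for Pdyn (0.832) and largest for Rgs9 (0.973). The library's hippocampus markers (1.05) were below the highest cortex library, and its wider striatal list (4.96) was the highest of the hippocampus libraries.

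The other is WT CON hippocampus replicate 4, low for Ppp1r1b at 35.8 FPKM where the next was 226. Its hippocampus markers were at 3.53, and its Pdyn (24.8) lay above all GFP-BM CON hippocampus libraries.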

How the results depend on the processing

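Of 237 refits of the member counts under other settings, 223 gave the same count or one close to it, and in 510 refits with 1 library left out 490 did. A small rise of a count above 0 was taken as close, and such refits are not listed below. For example, Penk also passed in thalamus against hippocampus in GFP-BM CON after quantile normalization (adjusted p = 0.034 by limma). All 27 refits of the correlations with Drd1 kept their side of the threshold. The counts of members called in the 3 treatment comparisons of cortex, the 3 of thalamus, the 3 contrasts of thalamus with cortex, and in thalamus against cortex in WT CON and GFP-BM CON were 0 under every alternative run.

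GFP-BM CON against WT CON in hippocampus (0 members called) gave 1 with a correction for GC content and length (1.28% of all genes called), 2 with all 9 groups in one fit (19.4%), 1 with only those 2 groups (0.0068%) and 1 without the 3 libraries low in hippocampus markers (0.0068%). Its count was 0 to 1 with a library left out. It was 1 without WT CON replicate 3 (6.55% of all genes), GFP-BM CON replicate 4 (5.4%) or GFP-BM REPOP replicate 4 (0.0068%). GFP-BM REPOP against WT CON gave 0 to 1, the 1 being without GFP-BM REPOP replicate 4 (0.034% of all genes). The Drd1 difference of GFP-BM REPOP from GFP-BM CON in hippocampus ran from -0.03 to 1.57, with the sign turned without GFP-BM REPOP replicate 4.

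With the mouse as a fixed replicate block, thalamus against cortex in GFP-BM REPOP gave 1 (from 0; 36.1% of all genes), thalamus against hippocampus in GFP-BM CON 8 (from 2; 23.6%), cortex against hippocampus in WT CON 1 (from 0; 8.85%) and in GFP-BM CON 9 (from 2; 21.9%). These fits held only the groups compared, so the block and the spread changed together. Replicate numbers do not pair treatments, which used different mice (correlations of same-numbered libraries -0.43 to 0.49), and a block for them left each treatment count at 0. Cortex against hippocampus in GFP-BM CON gave 5 after quantile normalization (28.6%) and 0 by voom on recovered reads (20.4%).

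Without the 3 libraries low in hippocampus markers, an alternative chosen after seeing the data, thalamus against hippocampus gave 5 in GFP-BM CON (16.9% of all genes) and 5 in GFP-BM REPOP (36.3%), and cortex against hippocampus 7 (22.7%) and 2 (29.6%). With single libraries left out these 4 counts ran from 0 to 4, 0 to 8, 0 to 7 and 0 to 6. Cortex against hippocampus in WT CON ran from 0 to 1 (1 without WT CON thalamus replicate 3, 36.2% of all genes). The highest counts of the 4 ranges came without GFP-BM REPOP hippocampus replicate 4, thalamus against hippocampus beside 14.9% of all genes in GFP-BM CON and 37.6% in GFP-BM REPOP. Cortex against hippocampus stood beside 20.5% and 26.1%. In GFP-BM CON the counts fell to 0 without thalamus replicate 1 or 2, and without cortex replicate 2 or 4 or hippocampus replicate 4, and to 1 without hippocampus replicate 1 (both comparisons), cortex replicate 1 or hippocampus replicate 2 or 3; without WT CON hippocampus replicate 4 cortex against hippocampus gave 6. The causes were not tested. With 3 or 4 mice in a group and a within-group SD of 1.48 for members in hippocampus, differences there are imprecise.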
